A study of Mus musculus with 6 samples.

Results

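The enzymes that build cholesterol and fatty acids, with their main regulators, were followed across 6 arrays of differentiating mouse muscle cells. The group is a list of 32 genes, and every probe set that the platform annotation assigns to one of them alone was kept. That gave 73 probe sets for 31 genes, out of 45033 probe sets and 18192 genes in all. Acat2 had no probe set of its own in the annotation used here. The 31 genes fall into 7 early sterol enzymes, 9 late sterol enzymes, 6 regulators and 9 fatty acid enzymes.

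The cells were C2C12, a line of mouse muscle precursors that stops dividing and fuses into myotubes when serum is lowered. In 3 arrays the cells had been transfected with an shRNA (a short hairpin RNA that lowers the transcript it matches) against PRDM2, a histone H3 lysine 9 methyltransferase; these are called PRDM2 knockdown. In 3 arrays they had been transfected with an shRNA against GFP, a protein foreign to mouse cells; these are called GFP control. Both groups were kept in 2% horse serum for 28 hours, and the labels number 3 biological replicates in each group. The comparison asks how expression in differentiating myoblasts differs when PRDM2 is targeted, and for these genes whether the lipid synthesis programme differs with it.

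Cholesterol is made from acetyl-CoA in a long chain of steps. The early enzymes build mevalonate, then isoprenoid units, and join them into squalene; the late enzymes fold squalene into lanosterol and trim and reduce it to cholesterol. Most of these genes are targets of SREBP-2, the product of Srebf2, and the fatty acid enzymes of SREBP-1, the product of Srebf1; Scap escorts both to their activation, and the Insig proteins hold Scap back when sterols are plentiful. Dividing cells need new membrane lipid.

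SREBP factors usually act on a promoter together with NF-Y, which reads CCAAT, and Sp1, which reads GGGCGG, so the stretches around the start sites were read for these motifs. They are 300 bases each, 250 before and 50 after the start, from RefSeq on build GRCm38.p6, and 33 such windows matched 25 of the 32 genes. Tm7sf2 (chr19:6067801-6068100, minus strand), Sc5d (chr9:42264251-42264550, minus strand) and Ebp (chrX:8193463-8193762, minus strand) are shown because the differences between the groups were widest in them, with each CCAAT, on either strand, in capitals. Hmgcs1 (chr13:119690101-119690400, plus strand) is shown because it held the single copy of the sterol regulatory element, in capitals.
Tm7sf2: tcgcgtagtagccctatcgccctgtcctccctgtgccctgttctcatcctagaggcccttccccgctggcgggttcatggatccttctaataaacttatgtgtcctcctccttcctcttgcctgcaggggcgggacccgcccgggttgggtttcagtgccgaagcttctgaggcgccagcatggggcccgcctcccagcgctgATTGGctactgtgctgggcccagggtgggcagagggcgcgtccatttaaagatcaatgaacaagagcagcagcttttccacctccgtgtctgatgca
Sc5d: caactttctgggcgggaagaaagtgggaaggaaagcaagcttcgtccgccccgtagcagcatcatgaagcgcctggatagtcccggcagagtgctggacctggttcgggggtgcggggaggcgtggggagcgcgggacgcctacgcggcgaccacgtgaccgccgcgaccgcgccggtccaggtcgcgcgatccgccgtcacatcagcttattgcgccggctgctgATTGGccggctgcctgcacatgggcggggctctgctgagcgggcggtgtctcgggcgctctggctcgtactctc
Ebp: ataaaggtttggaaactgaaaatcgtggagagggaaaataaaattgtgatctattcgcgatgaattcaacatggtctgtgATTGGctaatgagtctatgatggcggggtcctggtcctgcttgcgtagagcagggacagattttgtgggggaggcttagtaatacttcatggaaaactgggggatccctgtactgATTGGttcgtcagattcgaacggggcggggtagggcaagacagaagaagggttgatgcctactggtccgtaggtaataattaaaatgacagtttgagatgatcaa
Hmgcs1: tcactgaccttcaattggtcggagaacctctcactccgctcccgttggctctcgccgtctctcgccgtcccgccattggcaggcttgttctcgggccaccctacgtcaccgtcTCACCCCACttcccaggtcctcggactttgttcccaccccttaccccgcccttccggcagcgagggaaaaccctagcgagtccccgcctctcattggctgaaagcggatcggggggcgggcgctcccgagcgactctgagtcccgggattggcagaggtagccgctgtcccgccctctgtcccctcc

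In both Tm7sf2 and Sc5d the motif lay on the opposite strand as ATTGG, and its first base stood 47 bases before the start in Tm7sf2 and 24 bases before it in Sc5d; the sterol element of Hmgcs1 began 137 bases before the start. CCAAT on either strand was in 8 of the 10 late sterol windows, 5 of the 7 early sterol windows, 5 of the 10 regulator windows and 3 of the 6 fatty acid windows, which is 63.64% of the members' windows, against 37.41% of all 32851 windows of this length. GGGCGG was in 9 of the 10 late sterol windows and in 75.76% of the members' windows, against 35.66% of all windows. TCACNCCAC, a spelling of the sterol regulatory element, was in 1 of the 33 windows and in 1.24% of all. CACGTG, the E-box that SREBP-1 can also bind, was in 6 of the 33 windows and in 7.15% of all windows. No motif in this search contains another, and both strands were read. A match describes letters in a window and does not show that a factor binds there.

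The 6 arrays had median intensities between 10.7 and 11.4 units, and their number limits the precision. Below, a level is the log2 of the quantile-normalised intensity plus 16, so that 4 is the floor, and a fold change is PRDM2 knockdown minus GFP control on that scale, which understates the change of dim genes. Skeletal muscle markers such as Des, Myog and Acta1 were bright on every array, and the mean level of 10 of them lay between 10.4 and 10.5 in PRDM2 knockdown and between 10.4 and 10.6 in GFP control. Myf5, a determination factor of myoblasts on the same list, stood apart from that mean: it read 5.5, 5.80 and 5.73 in PRDM2 knockdown replicates 1, 2 and 3, against 7.55, 5.84 and 7.60 in GFP control replicates 1, 2 and 3. It was the one muscle marker called without GFP control replicate 2 (log2 fold change -1.90, adjusted p = 0.00767 with limma). The similar means hide a split: 8 of the 10 had a fold change above 0 with all 6 arrays, with a median of 0.08, and Des and Myf5 lay below 0. Tnnt3 was highest, with 10.90, 10.75 and 10.85 in PRDM2 knockdown replicates 1, 2 and 3, against 10.02, 10.78 and 10.55 in GFP control. Its fold change was 0.39, and 0.55 without GFP control replicate 2 (adjusted p = 0.288 with limma). Of 7 measured adipocyte markers, 5 read under 16 units on average, including Adipoq and Fabp4, and their summed intensity was 81.6 to 111 units in PRDM2 knockdown and 74.4 to 107 units in GFP control. Of 6 macrophage markers, 3 read under 16 units on average, and the mean level of the list was 4.95 to 5.28 in PRDM2 knockdown and 4.92 to 5.21 in GFP control. The target Prdm2 read 6.67, 6.32 and 6.02 in PRDM2 knockdown replicates 1, 2 and 3, against 6.19, 6.42 and 5.94 in GFP control replicates 1, 2 and 3 (log2 fold change 0.15, SE 0.19; limma gave an adjusted p of 1), and its other probe sets stood at 0.07 (SE 0.18) and 0.12 (SE 0.09). Target mRNA did not separate the groups, so every direction below rests on the labels.

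GFP control replicate 2 stood apart from the rest of its group. Over the 31 genes, the median absolute log2 difference between it and PRDM2 knockdown replicate 2 was 0.04, the smallest of the 15 pairs of arrays, and the next pair stood at 0.14. Its difference from GFP control replicates 1 and 3 was 0.20 and 0.27, and those 2 lay 0.16 apart. PRDM2 knockdown replicate 2 also stood off from its own group, at 0.225 and 0.18 from replicates 1 and 3, which lay 0.14 apart. Across all genes GFP control replicate 2 was nearer to the PRDM2 knockdown mean than to the mean of the other controls for 67.8% of genes. For the members this held for 20 of 31, a share near that of all genes. Each result is therefore given with and without GFP control replicate 2. Leaving it out was chosen with earlier results of these arrays known, so its p-values are not those of a planned test.

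With all 6 arrays, no member passed. Of the 73 probe sets 0 had an adjusted p under 0.05 with limma, as did 0% of all probe sets, and 6 had an unadjusted p under 0.05, where 2.94% of all probe sets did. With the replicate number as a block, 17 of the 73 had an unadjusted p under 0.05, against 7.84% of all probe sets, and the smallest adjusted p among them was 0.631. Of the 31 genes, each read by its brightest probe set, 22 had a fold change above 0, where 48.8% of all genes did; the median was 0.12, and it was -0.0033 over all genes. Without GFP control replicate 2, 1 of the 73 probe sets, that of Tm7sf2, was called higher, against 0.266% of all probe sets, and 0 were called lower, against 0.262%. In that fit 14 of the 73 had an unadjusted p under 0.05, against 10.2% of all probe sets. In an array of bulk RNA, fewer cells of a type and less RNA per cell cannot be told apart.

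**Figure D1:**
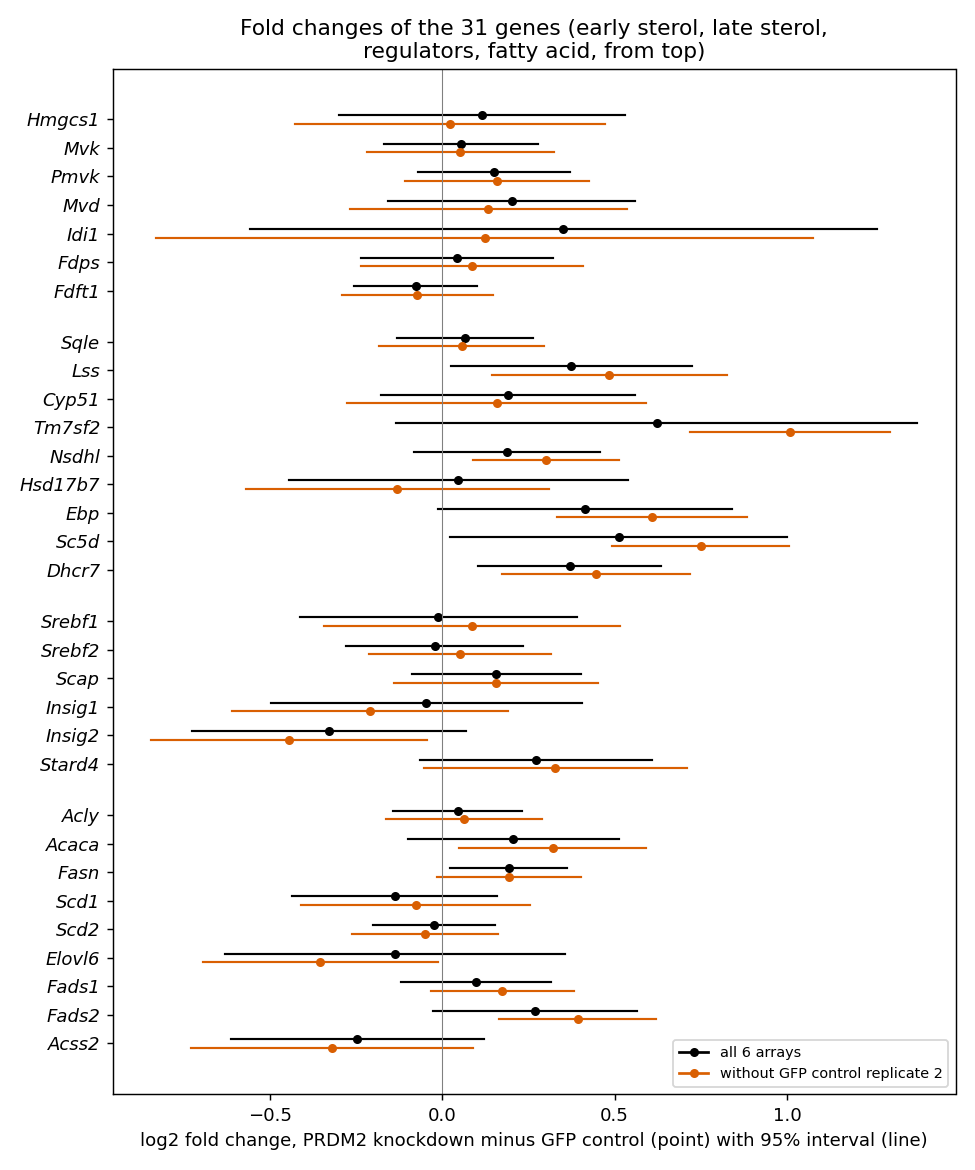
Log2 fold change of each of the 31 genes by its brightest probe set (points) with limma's 95% interval (lines), from top to bottom early sterol, late sterol, regulators and fatty acid, in black for all 6 arrays and in orange without GFP control replicate 2. The 9 late sterol points in black all lie above 0, and the highest of them is Tm7sf2 at 0.62.

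The late sterol enzymes had the highest median fold change of the 4 classes. All 9 had a fold change above 0 with all 6 arrays, with a median of 0.37 and a range of 0.05 to 0.62, and 8 of 9 did without GFP control replicate 2, where the median was 0.45 and Hsd17b7 lay at -0.13. None of the 9 passed with all 6 arrays. The mean level of the class was 7.85, 7.69 and 7.74 in PRDM2 knockdown replicates 1, 2 and 3, against 7.29, 7.65 and 7.41 in GFP control replicates 1, 2 and 3. All PRDM2 knockdown arrays lay above all GFP control arrays, with the narrowest gap at GFP control replicate 2. Set against the control of the same number, PRDM2 knockdown was higher in all 3 numbers in 6 of the 9 late enzymes and in 13 of the 31 genes, against 14.5% of all genes, and lower in all 3 in 1 of the 31, Scd1, against 16.5%. The sizes were unequal: the median difference of the 9 late enzymes was 0.60, 0.03 and 0.35 log2 units in numbers 1, 2 and 3. In number 2 no late enzyme differed by more than 0.16, so that number adds little beyond a sign. At an unadjusted p under 0.05 with limma there were 5 of the 9 late enzymes with the replicate number as a block, against 10.3% of all genes. Without the block there were 3 of the 9, against 3.72% of all genes. The group means were 7.76 ± 0.09 in PRDM2 knockdown and 7.45 ± 0.18 in GFP control (SD, n = 3 each).

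**Figure D2:**
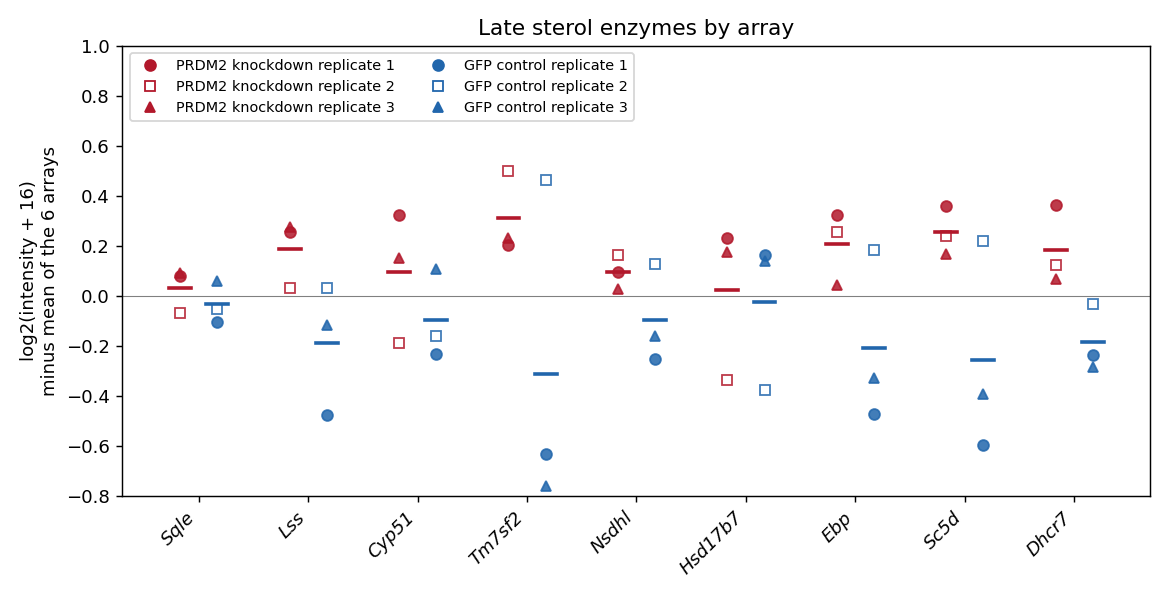
Level of each late sterol enzyme on each array, as the difference in log2 units from that gene's mean over the 6 arrays; PRDM2 knockdown is red and GFP control blue, bars are group means, and open squares are the replicates numbered 2. In Tm7sf2, Nsdhl, Ebp and Sc5d the open blue square lies among or near the red points and the other 2 blue points lie below all red ones.

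Tm7sf2 encodes a sterol reductase that acts just after lanosterol is demethylated. Its deposited intensity was 71.2, 89.6 and 65.9 units in PRDM2 knockdown replicates 1, 2 and 3, against 31.4, 90.2 and 27.5 units in GFP control replicates 1, 2 and 3. On the log2 scale these were 6.41, 6.71 and 6.44 in PRDM2 knockdown, against 5.58, 6.67 and 5.45 in GFP control. GFP control replicate 2 lay within the PRDM2 knockdown range, so the groups overlapped, and the other 2 controls lay well below it. With all 6 arrays the fold change was 0.62 (SE 0.32) with a 95% interval of -0.13 to 1.38, and limma gave an adjusted p of 1. Without GFP control replicate 2 Tm7sf2 rose by 1.01 (SE 0.12, interval 0.72 to 1.30), 2.01-fold on this scale, with an adjusted p of 0.0368 in limma. That call was lost with the deposited scaling, with median centring and with an offset of 1 or 64 (adjusted p = 0.0608, 0.0701, 0.166 and 0.102), and with both arrays numbered 2 left out it stood at 0.92 (adjusted p = 0.0662, or 0.0188 with the replicate number as a block). With all 6 arrays and the block its adjusted p was 0.631 in limma.

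Some markers of other cell types split the controls in the same way. Of 6 fibroblast markers, 2 were called without GFP control replicate 2, in opposite directions. Col1a1, a chain of type I collagen, read 9.99, 9.75 and 9.10 in PRDM2 knockdown replicates 1, 2 and 3, against 6.82, 9.74 and 6.80 in GFP control replicates 1, 2 and 3 (log2 fold change 2.80 without GFP control replicate 2, adjusted p = 0.0195 with limma). Dcn, the matrix proteoglycan decorin, read 4.53, 4.90 and 5.17 in PRDM2 knockdown replicates 1, 2 and 3, against 7.55, 5.07 and 7.66 in GFP control replicates 1, 2 and 3 (log2 fold change -2.74 without GFP control replicate 2, adjusted p = 0.0107 with limma). Pdgfra, a growth factor receptor of mesenchymal cells, stood at 0.78 in that fit and was not called (adjusted p = 0.382 with limma). The 2 dim members of the list were Thy1 and Lum, and the summed intensity of the list was 3293 to 3904 units in PRDM2 knockdown and 3662 to 3924 units in GFP control. Most of that sum came from Col3a1, another collagen gene, which pointed opposite to Col1a1. Col3a1 had deposited intensities of 2593, 2982 and 2753 units in PRDM2 knockdown replicates 1, 2 and 3, against 3510, 2985 and 3373 units in GFP control replicates 1, 2 and 3. Its fold change was -0.24 with all 6 arrays and -0.29 without GFP control replicate 2 (adjusted p = 0.428 with limma). Cebpa, a factor of adipocyte differentiation and not dim, had deposited intensities of 39.4, 79.2 and 54.0 units in PRDM2 knockdown replicates 1, 2 and 3, against 22.4, 74.4 and 20.2 units in GFP control replicates 1, 2 and 3. Its fold change without GFP control replicate 2 was 0.95 (adjusted p = 0.179 with limma). Pparg, the other adipocyte marker that was not dim, pointed the other way, at -0.24 in that fit (adjusted p = 0.654 with limma). Pparg read 5.12, 4.91 and 5.27 in PRDM2 knockdown replicates 1, 2 and 3, against 5.25, 5.01 and 5.42 in GFP control replicates 1, 2 and 3. Of the 7 measured adipocyte markers, 3 had a fold change above 0 with all 6 arrays. In Col1a1, Dcn and Cebpa, as in Tm7sf2, GFP control replicate 2 read close to the PRDM2 knockdown arrays. The part of these markers in the late sterol levels was not tested.

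Sc5d, the desaturase that makes 7-dehydrocholesterol, showed the same split of the controls. Its brightest probe set read 6.91, 6.79 and 6.72 in PRDM2 knockdown replicates 1, 2 and 3, against 5.96, 6.77 and 6.16 in GFP control replicates 1, 2 and 3. Sc5d had a fold change of 0.51 (SE 0.20, adjusted p = 1 with limma), and 0.75 (SE 0.11, adjusted p = 0.0566) without GFP control replicate 2. Both other probe sets of Sc5d lay on the same side, each at 0.26 with all 6 arrays (SE 0.15 and 0.12).

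Ebp is the sterol isomerase that works just before Sc5d. It read 8.35, 8.28 and 8.07 in PRDM2 knockdown replicates 1, 2 and 3, against 7.55, 8.21 and 7.70 in GFP control replicates 1, 2 and 3. GFP control replicate 2 again lay within the PRDM2 knockdown range. Ebp had a fold change of 0.41 (SE 0.18, adjusted p = 1), and 0.61 (SE 0.11, adjusted p = 0.108) without that array, both with limma.

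Dhcr7, which reduces 7-dehydrocholesterol to cholesterol in the final step, was the one late enzyme whose groups did not overlap. It read 7.92, 7.68 and 7.62 in PRDM2 knockdown replicates 1, 2 and 3, against 7.31, 7.52 and 7.27 in GFP control replicates 1, 2 and 3. Among the 31 genes 2 had all PRDM2 knockdown arrays above all controls, the other being Fasn, against 2.93% of all genes, and 0 had them all below, against 4.24%. The fold change of Dhcr7 was 0.37 (SE 0.11, 95% interval 0.11 to 0.64, adjusted p = 1 with limma), and 0.45 (SE 0.11, adjusted p = 0.216) without GFP control replicate 2.

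Lss, lanosterol synthase, folds the squalene epoxide into the sterol ring system. It read 7.19, 6.96 and 7.21 in PRDM2 knockdown replicates 1, 2 and 3, against 6.46, 6.96 and 6.82 in GFP control replicates 1, 2 and 3. GFP control replicate 2 and PRDM2 knockdown replicate 2 were level, and the other controls lay below all PRDM2 knockdown arrays. Lss had a fold change of 0.38 (SE 0.15, adjusted p = 1), and 0.48 (SE 0.14, adjusted p = 0.278) without GFP control replicate 2, both with limma. A second probe set of Lss gave 0.42 (SE 0.18), and the one named here carries a suffix that Affymetrix gives to probe sets able to match more than one transcript.

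The fold changes of the other 4 late enzymes were 0.05 to 0.19. Nsdhl, a dehydrogenase that helps strip methyl groups from the sterol ring, read 8.79, 8.86 and 8.72 in PRDM2 knockdown replicates 1, 2 and 3, against 8.45, 8.83 and 8.54 in GFP control replicates 1, 2 and 3. Cyp51, the lanosterol demethylase, read 8.94, 8.43 and 8.77 in PRDM2 knockdown and 8.39, 8.46 and 8.73 in GFP control, with PRDM2 knockdown replicate 2 next to the lowest control. Sqle, the squalene epoxidase and a control point of the pathway, kept between 9.21 and 9.37 in PRDM2 knockdown and between 9.17 and 9.34 in GFP control. In Hsd17b7, a ketoreductase of the same process, both arrays numbered 2 were lowest, at 6.24 in PRDM2 knockdown and 6.20 in GFP control, with 6.81 and 6.76 in the other PRDM2 knockdown arrays and 6.75 and 6.72 in the other controls. That probe set has a suffix marking possible matches to other transcripts, and a dimmer one of Hsd17b7 had both arrays numbered 2 highest, at 5.62 in PRDM2 knockdown and 5.55 in GFP control. Without GFP control replicate 2, all PRDM2 knockdown arrays lay above both other controls in 6 of the 9 late enzymes, in 4 of 9 fatty acid enzymes and in none of the 7 early enzymes or 6 regulators, against 14.2% of all genes.

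The groups overlapped in every one of the 7 early sterol enzymes measured. Of the 7, 6 had a fold change above 0, with a median of 0.12 and a range of -0.08 to 0.35, and 0 had an unadjusted p under 0.05. The class mean was 8.21, 7.97 and 8.32 in PRDM2 knockdown replicates 1, 2 and 3, against 7.97, 7.95 and 8.22 in GFP control replicates 1, 2 and 3. The lowest levels were those of both arrays numbered 2 and of GFP control replicate 1. In Hmgcs1, Mvd and Idi1 both arrays numbered 2 were the lowest of the 6, a pattern seen in 6 of the 31 genes and in 19.4% of all genes. They were the highest in 5 of the 31 and in 18.1% of all genes, and in none of the 7 early enzymes. A list of 10 proliferation markers was also low on both arrays numbered 2. Its mean levels were 8.56, 8.17 and 8.53 in PRDM2 knockdown replicates 1, 2 and 3, against 8.74, 8.19 and 8.57 in GFP control replicates 1, 2 and 3. GFP control replicate 1 was the highest array for that list, yet among the lowest for the early enzymes. The part of the proliferation list in the early sterol levels was not tested.

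Idi1, which isomerises isopentenyl diphosphate, had the widest range of the early enzymes. It read 9.16, 8.00 and 9.13 in PRDM2 knockdown replicates 1, 2 and 3, against 8.31, 7.96 and 8.97 in GFP control replicates 1, 2 and 3, and a second probe set also had both arrays numbered 2 lowest. In deposited units these were 593, 238 and 496 in PRDM2 knockdown, against 313, 238 and 459 in GFP control. Its fold change was 0.35 (SE 0.38) with all 6 arrays, where limma's interval reached from -0.56 to 1.26, and 0.12 (SE 0.39) without GFP control replicate 2; the adjusted p was 1 and 0.968.

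Hmgcs1, the synthase that feeds mevalonate production, had 5 probe sets, whose fold changes ran from 0.06 to 0.13. Its brightest read 10.21, 9.66 and 10.19 in PRDM2 knockdown replicates 1, 2 and 3, against 9.89, 9.71 and 10.10 in GFP control replicates 1, 2 and 3. Mvd, the mevalonate diphosphate decarboxylase, read 6.76, 6.62 and 7.15 in PRDM2 knockdown replicates 1, 2 and 3, against 6.64, 6.50 and 6.78 in GFP control replicates 1, 2 and 3. In Mvd each PRDM2 knockdown array stood above the control of the same number, yet the groups overlapped; the fold change was 0.20 (SE 0.15, adjusted p = 1 with limma). Pmvk, a mevalonate pathway kinase, stood at 0.15 (SE 0.09, adjusted p = 1 with limma). Fdft1, the squalene synthase that commits the pathway to sterols, stood at -0.08 (SE 0.07, adjusted p = 1 with limma), with 9.36 to 9.54 in PRDM2 knockdown and 9.50 to 9.54 in GFP control. Mvk and Fdps, a mevalonate kinase and the farnesyl diphosphate synthase, stood at 0.05 (SE 0.09) and 0.04 (SE 0.12).

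**Figure D3:**
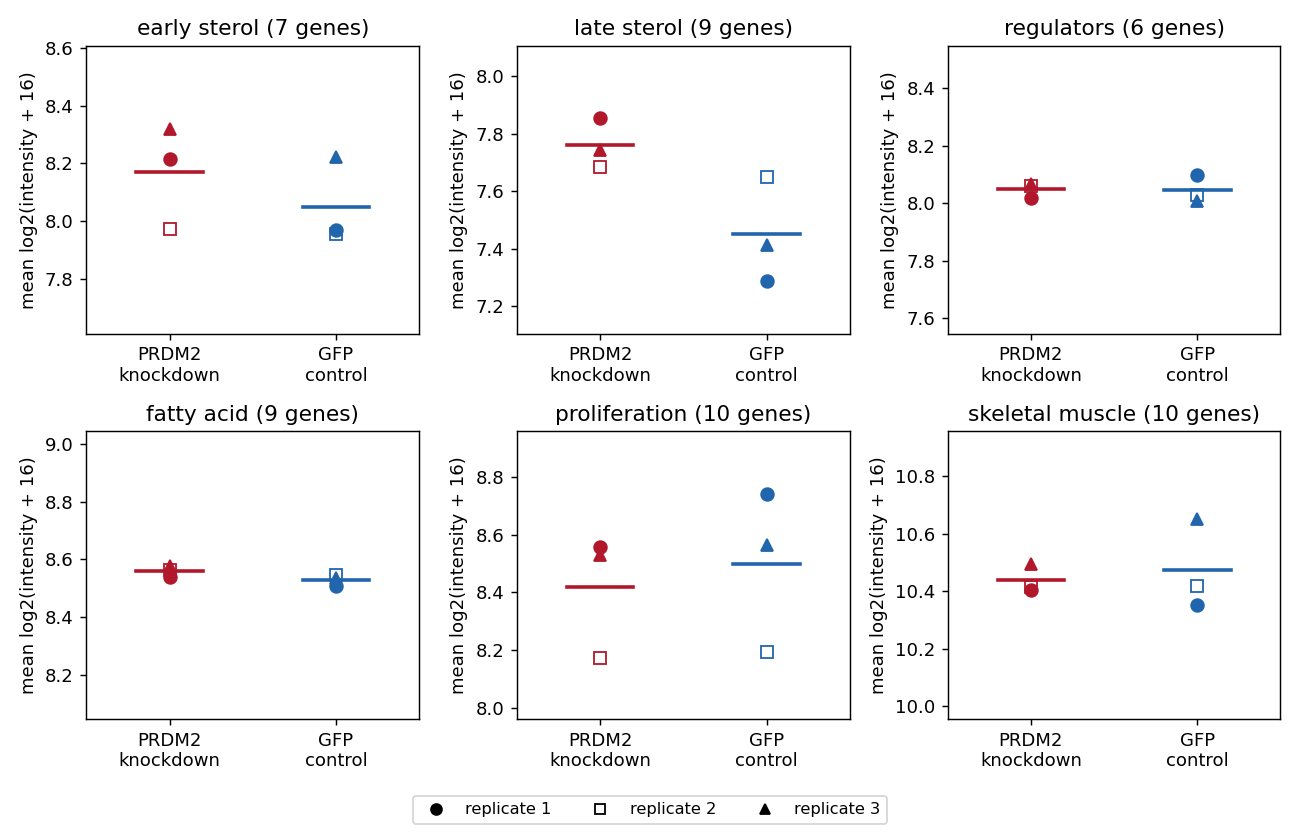
Mean level of the genes of each class, and of proliferation and skeletal muscle markers, on each array (log2 of intensity plus 16; each panel spans 1 log2 unit); PRDM2 knockdown is red, GFP control blue, bars are group means and open squares the replicates numbered 2. Late sterol mean levels lie at 7.69 to 7.85 in PRDM2 knockdown and 7.29 to 7.65 in GFP control. They do not overlap, but the gap between the open squares is narrow, and among the single late enzymes only Dhcr7 had no overlap. The early sterol and proliferation panels have both open squares low, and GFP control replicate 1 is also low in the early sterol panel.

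Among the regulators, the genes of the SREBP factors themselves had fold changes near 0 at their brightest probe sets. Srebf2 read 8.53, 8.81 and 8.61 in PRDM2 knockdown replicates 1, 2 and 3, against 8.63, 8.82 and 8.56 in GFP control replicates 1, 2 and 3 (log2 fold change -0.02, SE 0.11, 95% interval -0.28 to 0.23). Srebf1 read 8.49, 8.80 and 8.36 in PRDM2 knockdown and 8.67, 8.75 and 8.26 in GFP control (log2 fold change -0.01, SE 0.17, 95% interval -0.41 to 0.39). Both were highest on the arrays numbered 2. A second probe set of Srebf2 stood at -0.18 (SE 0.12). These mRNA levels do not show how much of either protein was cut to its active form. Scap stood at 0.16 (SE 0.10, adjusted p = 1 with limma), with 7.65, 7.38 and 7.66 in PRDM2 knockdown replicates 1, 2 and 3 and 7.49, 7.40 and 7.32 in GFP control replicates 1, 2 and 3.

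The genes of the Insig proteins, which retain Scap in the endoplasmic reticulum, did not share a pattern. Insig2 read 6.99, 7.5 and 7.45 in PRDM2 knockdown replicates 1, 2 and 3, against 7.75, 7.41 and 7.77 in GFP control replicates 1, 2 and 3. GFP control replicate 2 lay within the PRDM2 knockdown range and the other controls above it. The fold change of Insig2 was -0.33 (SE 0.17, adjusted p = 1), and -0.44 (SE 0.16, adjusted p = 0.423) without that array, both with limma, and its 3 probe sets all lay below 0, from -0.36 to -0.22. It was the one regulator with all PRDM2 knockdown arrays below GFP control replicates 1 and 3, which held for 3 of the 31 genes and for 16% of all genes. Insig1, itself an SREBP target, read 8.82, 8.38 and 8.50 in PRDM2 knockdown replicates 1, 2 and 3, against 8.93, 8.29 and 8.62 in GFP control replicates 1, 2 and 3. The fold change of Insig1 was -0.05 (SE 0.19, adjusted p = 1 with limma), and its sign turned to 0.05 without PRDM2 knockdown replicate 2 and to 0.12 without GFP control replicate 1.

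Stard4, a carrier that moves cholesterol between membranes, had 3 probe sets, all above 0 at 0.21 to 0.33. Its brightest read 7.62, 7.5 and 7.83 in PRDM2 knockdown replicates 1, 2 and 3, against 7.12, 7.49 and 7.53 in GFP control replicates 1, 2 and 3. The groups overlapped only by the narrow gap between PRDM2 knockdown replicate 2 and GFP control replicate 3. Stard4 had a fold change of 0.27 (SE 0.14, adjusted p = 1), and 0.33 (SE 0.16, adjusted p = 0.578) without GFP control replicate 2, both with limma. Over the 6 regulators 2 fold changes lay above 0 and 4 below, with a median of -0.02. Without GFP control replicate 2 the median was 0.07, with 4 of 6 above 0.

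**Figure D4:**
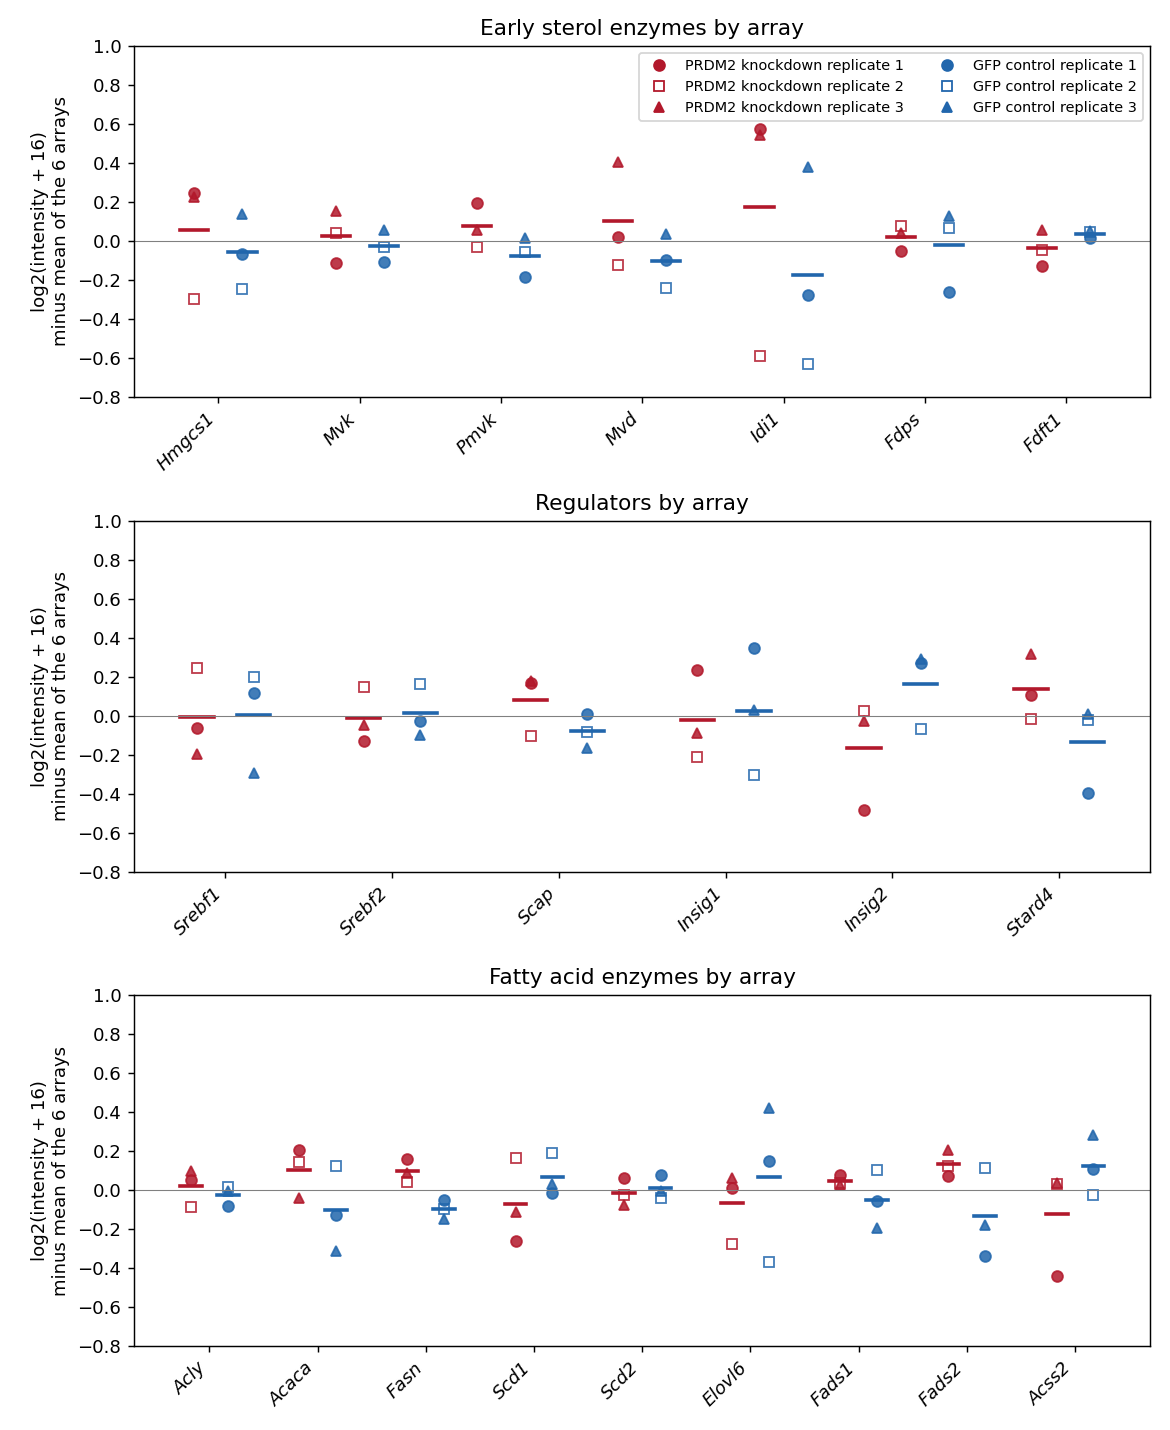
Level of each early sterol enzyme, regulator and fatty acid enzyme on each array, as the difference in log2 units from that gene's mean over the 6 arrays; PRDM2 knockdown is red and GFP control blue, bars are group means, and open squares are the replicates numbered 2. Fasn has every red point above every blue one, and in Idi1 both open squares lie lowest.

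Fatty acid enzymes were split in direction. Of the 9, 5 had a fold change above 0 and 4 below, with a median of 0.05 and a range of -0.25 to 0.27; the same counts held without GFP control replicate 2. The class mean was 8.54, 8.56 and 8.58 in PRDM2 knockdown replicates 1, 2 and 3, against 8.51, 8.55 and 8.53 in GFP control replicates 1, 2 and 3. The ranges of the groups overlapped.

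Fasn, the fatty acid synthase, was the one gene of this class whose groups did not overlap. It read 9.57, 9.45 and 9.50 in PRDM2 knockdown replicates 1, 2 and 3, against 9.36, 9.32 and 9.26 in GFP control replicates 1, 2 and 3. Here GFP control replicate 2 lay with the other controls. Fasn had a fold change of 0.19 (SE 0.07, 95% interval 0.02 to 0.36, adjusted p = 1) with all 6 arrays and 0.19 (SE 0.09, adjusted p = 0.540) without that array, both with limma.

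Acaca, the acetyl-CoA carboxylase that supplies malonyl-CoA to Fasn, read 7.92, 7.86 and 7.68 in PRDM2 knockdown replicates 1, 2 and 3, against 7.59, 7.84 and 7.41 in GFP control replicates 1, 2 and 3. Acaca had a fold change of 0.21 (SE 0.13, adjusted p = 1), and 0.32 (SE 0.11, adjusted p = 0.382) without GFP control replicate 2, both with limma. Acly, which makes acetyl-CoA from citrate, had 6 probe sets, 3 above 0 and 3 below, all between -0.06 and 0.15. Acss2, which makes acetyl-CoA from acetate, pointed the other way: it read 5.45, 5.92 and 5.93 in PRDM2 knockdown replicates 1, 2 and 3, against 6.0, 5.87 and 6.18 in GFP control replicates 1, 2 and 3. Its fold change was -0.25 (SE 0.15, adjusted p = 1), and -0.32 (SE 0.17, adjusted p = 0.636) without GFP control replicate 2, both with limma.

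The enzymes that desaturate and lengthen fatty acids lay on both sides of 0. Fads2, the first desaturase of polyunsaturated fatty acid synthesis, read 7.72, 7.77 and 7.85 in PRDM2 knockdown replicates 1, 2 and 3, against 7.31, 7.76 and 7.47 in GFP control replicates 1, 2 and 3. GFP control replicate 2 lay within the PRDM2 knockdown range. The fold change of Fads2 was 0.27 (SE 0.12, adjusted p = 1), and 0.39 (SE 0.09, adjusted p = 0.191) without that array, both with limma, and its 3 probe sets lay at 0.21 to 0.27. Fads1, which acts after it, stood at 0.10 (SE 0.09).

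Scd1 and Scd2, paralogous desaturases that make monounsaturated fatty acids, differed in their probe sets. The dimmer of 2 probe sets of Scd1 read 6.74, 7.15 and 6.64 in PRDM2 knockdown replicates 1, 2 and 3, against 7.16, 7.26 and 7.16 in GFP control replicates 1, 2 and 3, with no overlap and a fold change of -0.35 (SE 0.14). The brighter probe set of Scd1 overlapped, at -0.14 (SE 0.12). Scd2 at its brightest probe set was the steadiest of the 31 genes, with 11.42 to 11.56 in PRDM2 knockdown and 11.46 to 11.58 in GFP control, and its other probe sets stood at 0.17 (SE 0.17) and 0.13 (SE 0.43). Elovl6, which lengthens palmitate, had both arrays numbered 2 lowest, at 7.09 in PRDM2 knockdown and 7.0 in GFP control, and a fold change of -0.14 (SE 0.21).

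Probe sets of the same gene mostly pointed the same way. Of 22 genes with more than 1 probe set, only Acly and Scd2 had probe sets at or above 16 units on average that opposed the brightest one. Of the 73 probe sets, 12 lay under 16 units, where the offset sets the size of any difference, and every one of the 31 genes had a brighter one.

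Among 33 further genes of sterol and lipid handling, listed with earlier results of these arrays known, 27 were measured. With all 6 arrays 0 of the 27 passed in either direction with limma, and 0 did so without GFP control replicate 2, with 0 and 4 at an unadjusted p under 0.05, against 3.72% and 14% of all genes; 16 had a fold change above 0, with a median of 0.03. Groups did not overlap in 3 of the 27, 2 higher and 1 lower, where 2.93% of all genes were higher and 4.24% lower; these 3 were chosen after their values were seen. Mbtps1, a protease that activates the SREBP factors, read 7.82, 8.15 and 8.03 in PRDM2 knockdown replicates 1, 2 and 3, against 8.29, 8.17 and 8.19 in GFP control replicates 1, 2 and 3. Aacs, which activates acetoacetate for lipid synthesis, stood at 0.19 (SE 0.10), and Dgat2, a triglyceride synthase, at 0.10 (SE 0.07). Msmo1, a late sterol oxidase also picked after its values were seen, followed the early enzymes in having PRDM2 knockdown replicate 2 low, with 9.21, 8.59 and 9.22 in PRDM2 knockdown replicates 1, 2 and 3, against 8.56, 8.60 and 9.11 in GFP control replicates 1, 2 and 3.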

How the data were processed

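Total RNA from C2C12 cells was hybridised to 1 Affymetrix mouse array per sample, per the labels' protocols, with 3 arrays per group, grouped by title. The authors deposited a linear intensity for each probe set. GCOS and PLIER made them, per the submitters' processing notes; how arrays were scaled to each other is not stated there. Of 45101 probe sets, 64 controls were left out, and so were 4 that held the gene number 14699 in place of an intensity on 1 array and at most 5.18 elsewhere, leaving 45033. Gene names came from the platform annotation: 34941 probe sets named 1 gene, 932 several and 9160 none here. Values were taken as log2(intensity + 16) and quantile normalized. The main comparison was a two-sided moderated test in limma 3.58.1 (R 4.3.3; lmFit, eBayes) with no block and Benjamini-Hochberg adjustment over all 45033 probe sets and a threshold of 0.05; SEs and intervals are limma's moderated ones. A gene is read by its probe set of highest mean. The fit was tested on simulated data with independent arrays and with changes larger than those of the members. That test does not show how the fit handles small changes, paired numbers or an array that stands apart. No motif or list was given a test.

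Fold change, SE and adjusted p are given together for the 4 genes of smallest unadjusted p in each class and for any member past the threshold without GFP control replicate 2; other values are descriptions. The members and lists were chosen with earlier results of these data known. Once each group's mean was removed, arrays with the same number had correlations of 0.34, 0.59 and 0.66 across 18192 genes, and arrays of different numbers at most 0.08, so the numbers were read as paired from the data; the labels do not state a pairing. The labels call the replicates biological and say no more of their origin. The main fit did not use this pairing. Unless a block is named, p-values, SEs and intervals rest on the spread within groups, which includes any difference between replicate numbers. Leaving out GFP control replicate 2 alone also leaves PRDM2 knockdown replicate 2 without a partner. Alternatives were other scalings, offsets and filters, probe set rules, variance models, the block and leaving out arrays.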

Additional observations from a re-analysis of the deposited data

How the results depend on the processing

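No member probe set passed with all 6 arrays under any scaling, offset, filter, probe set rule, variance model, array weighting or the replicate block (0 in each). Leaving out 1 array gave 0 to 1 member probe sets and 0 to 238 of all probe sets, the upper values without GFP control replicate 2; without both arrays numbered 2 the counts were 0 and 57, and with the replicate block as well 1 and 717. Without GFP control replicate 2 the reported counts are 1 and 238. They became 0 and 132 with the deposited scaling, 0 and 127 with median centring, 0 and 11 with an offset of 1, and 0 and 14 with an offset of 64. They were 2 and 329 without dim probe sets, 2 and 291 with the brightest probe set per gene, 2 and 528 with trend and robust settings, 2 and 369 with array weights, and 1 and 717 with the replicate block, in which PRDM2 knockdown replicate 2 has no partner and carries no weight; where 2 were called they were Tm7sf2 and Sc5d. The cause of these shifts was not tested. The filtered and per-gene fits covered fewer features, and the part of that in their counts was not tested either. The fold changes of the 17 genes named with an SE by rule kept their sign in every alternative except for Insig1, which ranged from -0.21 to 0.12 with 1 array left out and stood at 0.05 without PRDM2 knockdown replicate 2 and 0.12 without GFP control replicate 1.

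Late sterol medians ranged from 0.23 to 0.45 and early sterol medians from 0.03 to 0.20 with 1 array left out. The fatty acid median of 0.05 was 0.0236 with the deposited scaling, 0.0219 with median centring, 0.0708 with the mean of probe sets per gene and 0.118 without both arrays numbered 2, with or without the block, and ranged from 0.00787 to 0.0989 with 1 array left out. The regulator median of -0.02 was 0.0442 with array weights and ranged from -0.0603 to 0.0791 with 1 array left out, so it has no settled sign. With 3 arrays per group, a 95% interval for Idi1 or Tm7sf2 covers more than 1 log2 unit.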
